A study of Mus musculus with 4 samples.

Results

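The 48 genes described here encode machinery that moves and fuses membranes. They are the fusion ATPase gene *Nsf* and its SNAP adaptors, the SNARE proteins with some of their binding partners, and the COPII coat of the endoplasmic reticulum (ER). They were listed by function because the kinase CDK16, a partner of cyclin Y proteins, has been tied to NSF and to COPII. A gene was read by the probe sets that the platform annotation pairs with its symbol alone, and the probe set with the highest mean signal stood for the gene. The 48 genes are among 18193 that have such a probe set, and they own 114 probe sets.

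SNAREs are short membrane proteins that zip together from facing membranes and so pull a vesicle onto its target. R-SNAREs (VAMPs) mostly sit on the vesicle, and Q-SNAREs (syntaxins and the SNAP-25 family) mostly on the target, while SM proteins such as the Munc18s guide their pairing. After fusion the ATPase NSF, held by the SNAP adaptors, pulls the spent complex apart. COPII builds transport vesicles at the ER, where the GTPase Sar1 recruits the inner layer of Sec23 and Sec24 and then the outer layer of Sec13 and Sec31. In the testis this traffic supplies the acrosome, which spermatids assemble from Golgi vesicles, and sperm later release the acrosome through SNARE-dependent fusion.

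The arrays compared testes of WT and *Ccnyl1*-/- mice, both C57BL/6 adults of 2 months, with 2 mice per genotype called biological replicates in the labels and 1 Affymetrix array per mouse. The *Ccnyl1*-/- mice carried tm1a(EUCOMM)Wtsi, a knockout-first allele with a LacZ cassette that all cells carry. The comparison asks which of these transcripts differed in the testis without *Ccnyl1*. Whole testis was measured, so fewer cells of a type and less RNA per cell cannot be told apart.

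*Ccnyl1* itself read 2256 and 2425 in WT against 921 and 969 in *Ccnyl1*-/- mice, a log2 fold change of -1.29 (limma adjusted p = 0.00463). The brightest *Cdk16* probe set gave a log2 fold change of -0.13, with an interval from -0.38 to 0.13 and an adjusted p of 0.894 in limma. Its other probe sets tested gave -0.08, -0.09 and -0.32, and the genotypes overlapped on each. Log2 signals of the 48 genes correlated between 0.985 and 0.992 over the 6 pairs of arrays. The 3' over 5' signal of *Actb* lay between 1.74 and 1.87. The summed signal of 10 elongating spermatid markers lay between 281236 and 291664 on all arrays. Of these markers 7 were lower in *Ccnyl1*-/- mice, *Odf1* the furthest (-0.14), and 3 higher, *Smcp* the furthest (0.18). Their median log2 fold change was -0.02. The sum of 10 round spermatid markers was 86516 and 83526 in WT against 81429 and 82574 in *Ccnyl1*-/- mice, lower for 9 of the 10. Other cells varied more between mice, with Leydig sums of 7149 and 3935 in WT against 9293 and 5220, and macrophage sums of 3834 and 2882 against 2845 and 2497. Macrophage markers were lower for 6 of 7 genes, while Leydig markers were higher for 4 of 5, peritubular myoid markers for 5 of 6 and Sertoli markers for 7 of 10. The part of these cells in the values below was not tested.

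None of the 47 genes tested differed between the genotypes past an adjusted p of 0.05 in limma, and their adjusted p ranged from 0.797 to 0.999. Over all 15268 genes tested 0.0196% passed, and over all 32438 probe sets 0.0123%. At an unadjusted p under 0.05 there was 1 gene, *Stxbp5*, which is 2.13% of the 47 against 6.29% of all genes. The methods' t-test gave 0 genes after adjustment. Values are MAS 5.0 signals, which are intensities on a linear scale, and fold changes are *Ccnyl1*-/- over WT on the scale of log2(signal + 16), which understates the change of dim probe sets. With 2 mice against 2, an exact two-sided permutation test cannot give a p below 0.333 for a single gene.

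The intervals bound how far the signal of the brightest probe set could have differed for most of these genes. They rest on a spread that limma borrows across probe sets, because 2 mice per genotype give little of their own. They do not bound dimmer probe sets, some of which reached past 2-fold, such as those of *Sec22a* (0.19 to 1.49) and *Sec24a* (-1.35 to 0.12). The 95% interval of the fold change stayed within 2-fold for 46 of the 47 genes, *Vamp1* being the exception, and within 1.5-fold for 38. Within 2-fold is 97.9% of the 47 genes and 83.4% of all genes. The 47 genes were also brighter, with a median mean signal of 823 against 387 over all genes. Their median standard error was 0.113 against 0.154. Whether the shares differ at equal brightness was not tested. The log2 fold change was under 0.2 in size for 38 genes, and for the 20 genes whose mean signal reached 1000 it lay between -0.14 and 0.16. The spread between mice of a genotype was small, with a median coefficient of variation of 5.60%.

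Direction was mixed. Of the 47 genes, 20 had a log2 fold change above 0 (42.6%, against 49.9% of all genes) and 27 below, with a median of -0.04 beside -0.00 over all genes. Scaling the arrays to one median lowered the median of all genes by 0.08, and then 10 of the 47 genes (21.3%) and 33.3% of all genes lay above 0. The genotypes did not overlap for 18 genes, 8 of them higher and 10 lower in *Ccnyl1*-/- mice, which is 38.3% against 36.1% of all genes (17.7% higher and 18.3% lower). When each mouse was left out in turn, 28 genes kept the sign of their fold change and 19 did not.

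**Figure D1:**
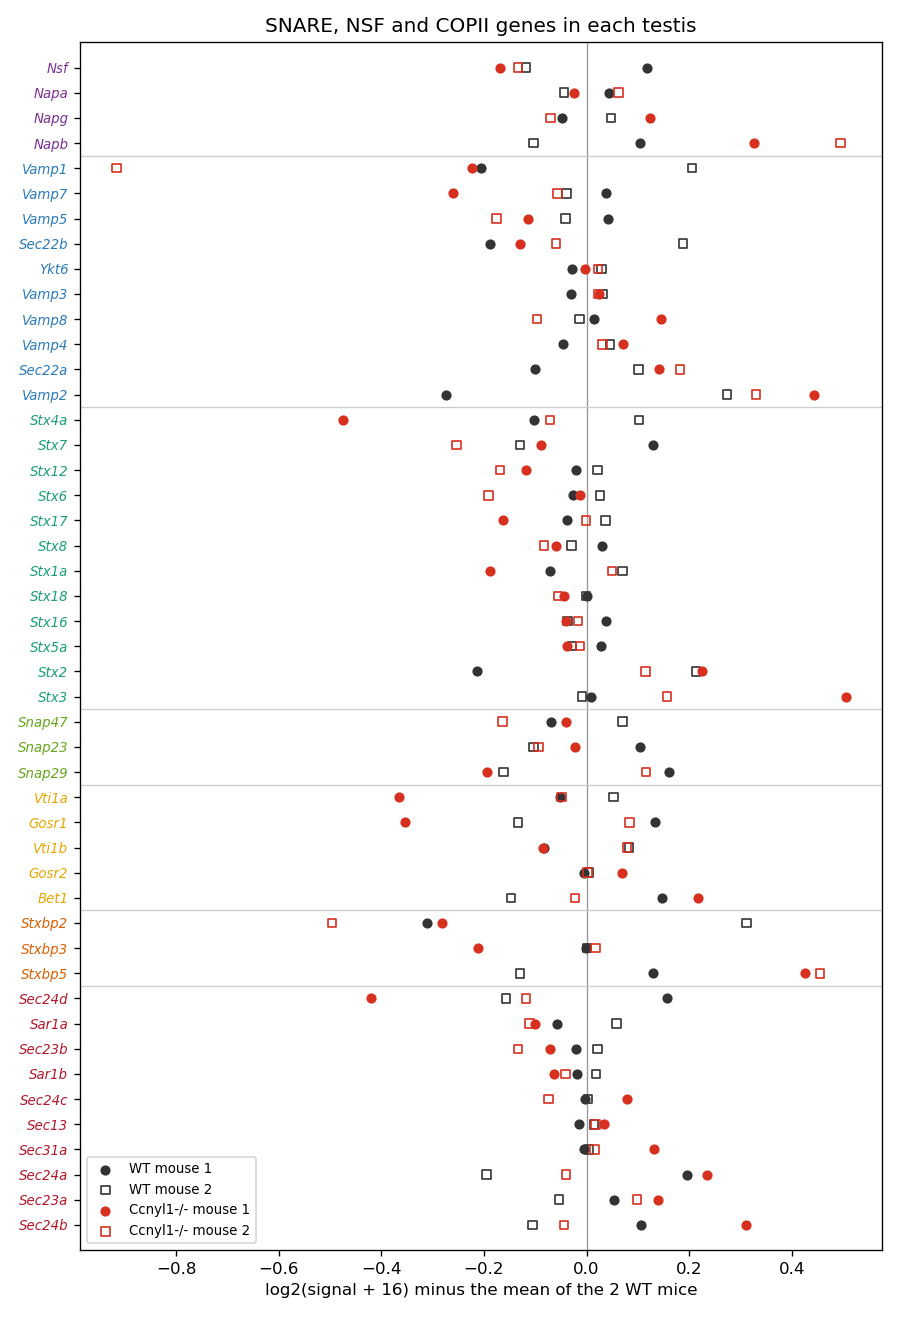
Each row is a gene and each point is 1 mouse, plotted as its log2(signal + 16) minus the mean of the 2 WT mice, so that 0 on the x axis is the WT level, with genes ordered and coloured by role. Points of both genotypes lie close to 0 for most genes, and the widest scatter belongs to *Vamp1*, which had the lowest mean signal of those tested.

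*Nsf* and the SNAP adaptors gave 3 fold changes above 0 and 1 below, none past the test. *Nsf*, the ATPase that recycles SNAREs, read 315 and 265 in WT against 255 and 262 in *Ccnyl1*-/- mice. The first WT mouse stood above the other 3, and the second WT mouse lay close to both *Ccnyl1*-/- mice. The log2 fold change was -0.15, with an interval from -0.52 to 0.21 and an adjusted p of 0.908 in limma. The other *Nsf* probe sets tested gave -0.08 and 0.14, so *Nsf* had no shared direction across its probe sets.

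*Napa*, the gene of alpha-SNAP, the widely used adaptor of NSF, read 2314 and 2176 in WT against 2205 and 2343 in *Ccnyl1*-/- mice. The genotypes overlapped, and the log2 fold change of 0.02 had a narrow interval from -0.16 to 0.20. *Napg*, which encodes gamma-SNAP, read 647 and 692 against 731 and 637. These also overlapped (log2 fold change 0.03), while its dimmer probe sets gave -0.34 and 0.66, the latter with a WT mean below the minimum signal. *Napb*, the gene of the beta-SNAP best known from brain, read 121 and 103 in WT against 144 and 164 in *Ccnyl1*-/- mice. Both *Ccnyl1*-/- mice lay above both WT mice, at 138% of the WT mean, but the log2 fold change of 0.41 (interval -0.07 to 0.89) had an adjusted p of 0.832 in limma. Its 4 other probe sets tested ranged from -0.02 to 0.46.

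Among the R-SNAREs and the Sec22 genes, 6 of 10 fold changes were above 0 and 4 below, with a median of 0.02. *Vamp2*, the vesicle SNARE of regulated secretion that is also known in the acrosome, read 224 and 334 in WT against 378 and 348 in *Ccnyl1*-/- mice. Both *Ccnyl1*-/- mice were the higher, at a log2 fold change of 0.39 (adjusted p = 0.832 in limma), and the value turned on which WT mouse was kept, at 0.11 without the first and 0.66 without the second (adjusted p = 0.415 in limma). A second probe set gave 0.26. *Vamp7*, a SNARE of late endosomes and lysosomes, read 180.0 and 169.8 against 143 and 167, with a log2 fold change of -0.16. Its *Ccnyl1*-/- mice were the lower on this probe set but the higher on a dimmer one, which gave 0.51.

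*Vamp1*, the synaptic relative of *Vamp2*, sat at the edge of detection, with 33.1 and 49.3 in WT against 32.5 and 14.0 in *Ccnyl1*-/- mice. Its *Ccnyl1*-/- mean of 23.2 lay below the minimum signal of 32, so it entered the test only through the WT mice. Its log2 fold change of -0.57, with an interval from -1.66 to 0.52, is given as a value and not ranked. The bright R-SNAREs stayed near 0. *Vamp3*, of recycling endosomes, and *Vamp4*, of the trans-Golgi network, gave 0.02 and 0.05, and *Ykt6*, a lipid-anchored SNARE of the Golgi, gave 0.01. *Vamp5*, *Vamp8*, *Sec22a* and *Sec22b* lay between -0.15 and 0.16.

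The syntaxins were lower in *Ccnyl1*-/- mice for 10 of 12 genes by their brightest probe set, with a median of -0.07, and none passed the test. That count depended on the probe sets read, since the mean over all probe sets of a gene gave 6 above and 6 below 0 with a median of -0.01. The lowest fold change was that of *Stx4a*, a plasma membrane syntaxin, which read 187 and 217 in WT against 140.4 and 191 in *Ccnyl1*-/- mice. These overlapped, and the log2 fold change of -0.27 had an interval from -0.75 to 0.20. *Stx6*, of the trans-Golgi network, read 778 and 807 against 785 and 692, a log2 fold change of -0.10 with overlapping mice. Its 5 other probe sets tested ran from -0.41 to 0.18.

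*Stx3*, a syntaxin of apical membranes, was one of the 2 with a fold change above 0, the other being *Stx2* at 0.17, a syntaxin that mouse spermatocytes need to complete division. *Stx3* read 103 and 102 in WT against 152 and 116 in *Ccnyl1*-/- mice. Both *Ccnyl1*-/- mice were above WT, with a log2 fold change of 0.33 and an adjusted p of 0.867 in limma. A second, dim *Stx3* probe set, singled out after its values were seen, read 35.6 and 7.25 against 55.02 and 86.7. It gave a log2 fold change of 1.30. Its WT mean of 21.4 lay below the minimum signal of 32, so it entered the test only through the *Ccnyl1*-/- mice, and its p is not read. Among the remaining syntaxins, *Stx12* of recycling endosomes, *Stx8* of late endosomes and *Stx18* of the ER did not overlap on the brightest probe set. Their log2 fold changes were -0.14, -0.07 and -0.05. The other probe set of *Stx12* gave -0.15, and those of *Stx8* gave -0.01 and 0.25 with overlap. Other *Stx18* probe sets ran from -0.07 to 0.23. Those at 0.17 and 0.23 also lacked overlap, but with the *Ccnyl1*-/- mice the higher.

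The SNAP-25 family and the Golgi and endosome Q-SNAREs held no gene whose genotypes stood apart on the brightest probe set. *Snap25*, the partner of synaptic syntaxins, had 6.17 and 17.8 in WT against 32.03 and 1.49 in *Ccnyl1*-/- mice, too dim for the test. *Snap29*, which acts in autophagosome fusion with *Stx17*, read 825 and 656 against 642 and 799, and *Snap47* read 1971 and 2173 against 2011 and 1845. Mice of both genotypes overlapped in either gene, at log2 fold changes of -0.04 and -0.10, and *Snap23*, the form found in most cells, gave -0.06. *Vti1a*, of the trans-Golgi network, read 364 and 392 in WT against 289.5 and 365 in *Ccnyl1*-/- mice, a log2 fold change of -0.21. The second *Ccnyl1*-/- mouse lay within the WT range, and the gene's other probe sets tested pointed the other way, at 0.29 and 0.30. *Bet1*, an ER to Golgi SNARE, read 875 and 711 against 919 and 776, which overlapped (0.10).

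The genes of syntaxin-binding proteins had the highest fold change of the set and one of its lowest. *Stxbp5*, the gene of tomosyn, which occupies syntaxins and holds back fusion, read 218 and 179 in WT against 271 and 277 in *Ccnyl1*-/- mice. Both *Ccnyl1*-/- mice lay above both WT mice, at 138% of the WT mean. The log2 fold change was 0.44, with an interval from 0.05 to 0.83, an unadjusted p of 0.031 and an adjusted p of 0.797 in limma. It stayed between 0.31 and 0.57 without each mouse in turn. The dimmer probe sets of the gene gave 0.54 and -0.50, and the mean over its probe sets gave 0.16. The unadjusted p was 0.548 for that mean, 0.068 with arrays scaled to one median and 0.078 in the methods' t-test.

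*Stxbp2*, the gene of Munc18-2, which chaperones syntaxins of secretory cells, read 543 and 846 in WT against 555 and 476 in *Ccnyl1*-/- mice. The second WT mouse was far above the other 3, which overlapped. The log2 fold change of -0.39 (interval -0.84 to 0.06, adjusted p = 0.832 in limma) became -0.08 without that mouse and -0.70 without the first WT mouse (adjusted p = 0.199 in limma). Its other probe sets gave -0.23 and -0.16, and *Stxbp3*, the gene of Munc18-3, gave -0.10.

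The COPII coat had 6 fold changes above 0 and 4 below among its 10 genes, with a median of 0.01. With arrays scaled to one median, which lowered all genes alike, the split was 3 above and 7 below. *Sec13* of the outer layer read 2093 and 2137 in WT against 2165 and 2141 in *Ccnyl1*-/- mice, and *Sec31a*, its partner, read 723 and 728 against 796 and 733. In both genes the *Ccnyl1*-/- mice were the higher by a margin of a few signal units, at log2 fold changes of 0.03 and 0.07. The intervals ran from -0.15 to 0.20 for *Sec13* and from -0.18 to 0.32 for *Sec31a*.

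The paralogs of the inner layer pointed in opposite directions. *Sec23a*, which activates the GTPase of Sar1, read 1982 and 1838 in WT against 2104 and 2044 in *Ccnyl1*-/- mice, a log2 fold change of 0.12. *Sec23b*, its paralog, read 1539 and 1585 against 1486 and 1422, a log2 fold change of -0.10. The genotypes did not overlap in either gene, and the adjusted p was 0.864 and 0.889 in limma. Whether the 2 fold changes differed from each other was not tested. The GTPases *Sar1a* and *Sar1b* lay below 0, at -0.11 and -0.05, again without overlap.

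The Sec24 proteins pick the cargo. *Sec24b* read 1351 and 1166 in WT against 1560.4 and 1217 in *Ccnyl1*-/- mice, and *Sec24a* read 659.9 and 499 against 678 and 558. These overlapped, at log2 fold changes of 0.13 and 0.10, and a dim second probe set of *Sec24a* gave -0.62. *Sec24d* read 172 and 136 against 110.4 and 139.7, an overlap of the lower WT mouse with the higher *Ccnyl1*-/- mouse, and its log2 fold change of -0.27 was the lowest of the coat. *Sec24c* gave 0.00.

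**Figure D2:**
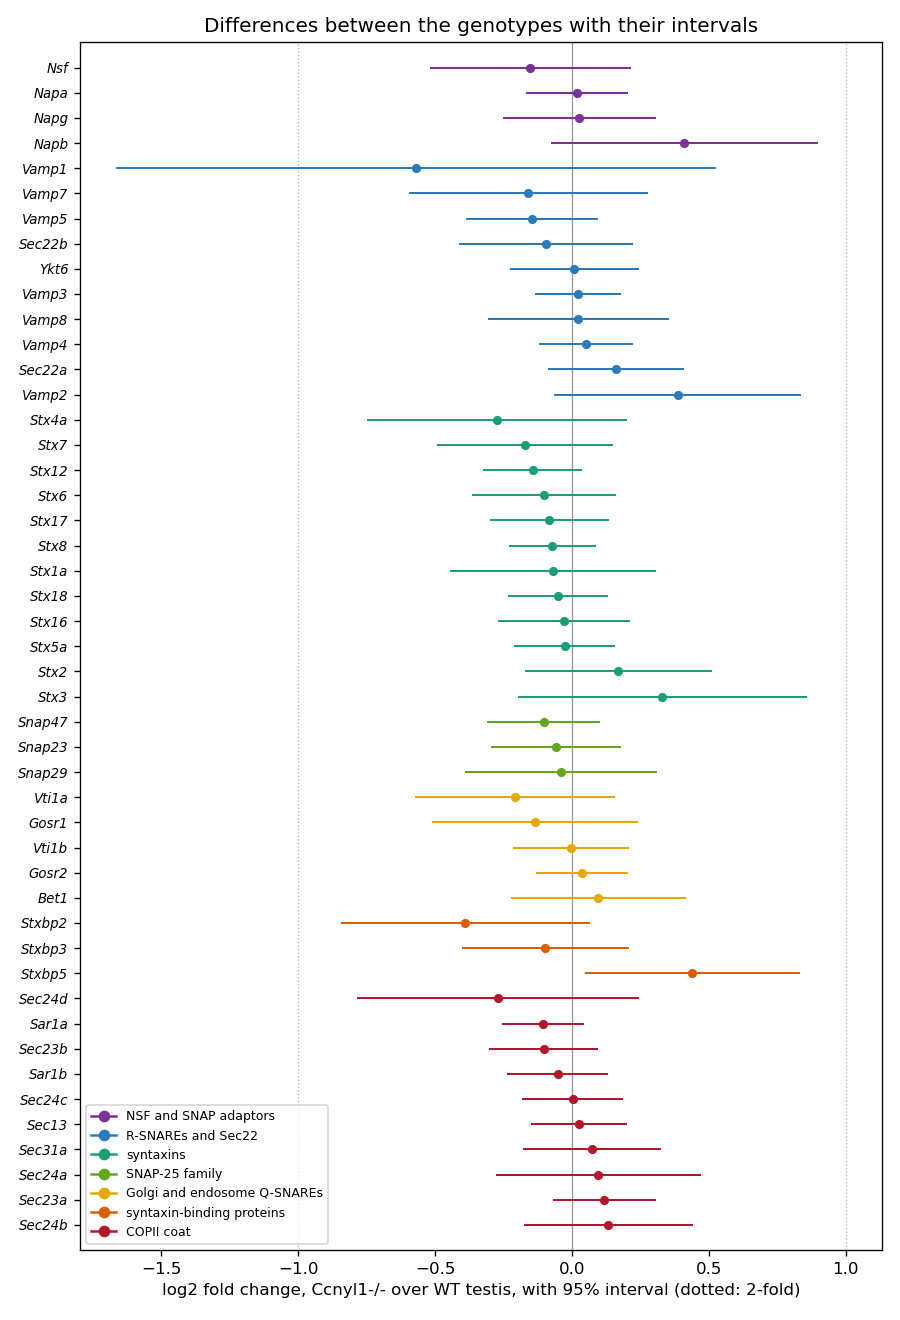
The x axis is the log2 fold change of *Ccnyl1*-/- over WT of the 47 genes tested, with bars for the 95% interval of limma and genes grouped by role on the y axis. The interval of *Stxbp5* (0.05 to 0.83) lies above 0 before adjustment, and the other intervals cross 0.

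Probe sets of the same gene often differed in sign. Of the 33 genes with several probe sets tested, 21 had signs both above and below 0 and 12 had a shared sign. In *Napg*, *Vamp7*, *Stx6*, *Stxbp5*, *Vti1a* and *Sec24a* the probe sets differed by over 0.5. Over the 104 probe sets tested, 4 had an unadjusted p under 0.05 (3.85%, against 6.05% of all probe sets) and none passed the adjusted test. In 4 of the 104 the mean of one genotype lay below the minimum signal, in *Vamp1* on its brightest probe set and in *Stx3*, *Napg* and *Napb* on a dimmer one.

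The 4 probe sets at an unadjusted p under 0.05 in limma include the brightest of *Stxbp5* and the dim one of *Stx3*. The latter passed the minimum through 1 genotype. The others are second probe sets of *Gosr2* and *Sec22a*, named after their values were seen. *Gosr2*, a SNARE between ER and Golgi, read 1872 and 2131 in WT against 1618 and 1683 in *Ccnyl1*-/- mice on that probe set, a log2 fold change of -0.27 (adjusted p = 0.764 in limma), while its brightest gave 0.04. *Sec22a*, of the early secretory pathway, read 44.1 and 49.7 against 99.5 and 93.8, a log2 fold change of 0.84 (adjusted p = 0.768 in limma), and its brightest gave 0.16. In both cases the genotypes did not overlap, but the WT mice of *Gosr2* were themselves spread out. The brighter probe set did not show a difference of that size. Both probe sets were picked by their unadjusted p, so their lack of overlap is no separate evidence.

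**Figure D3:**
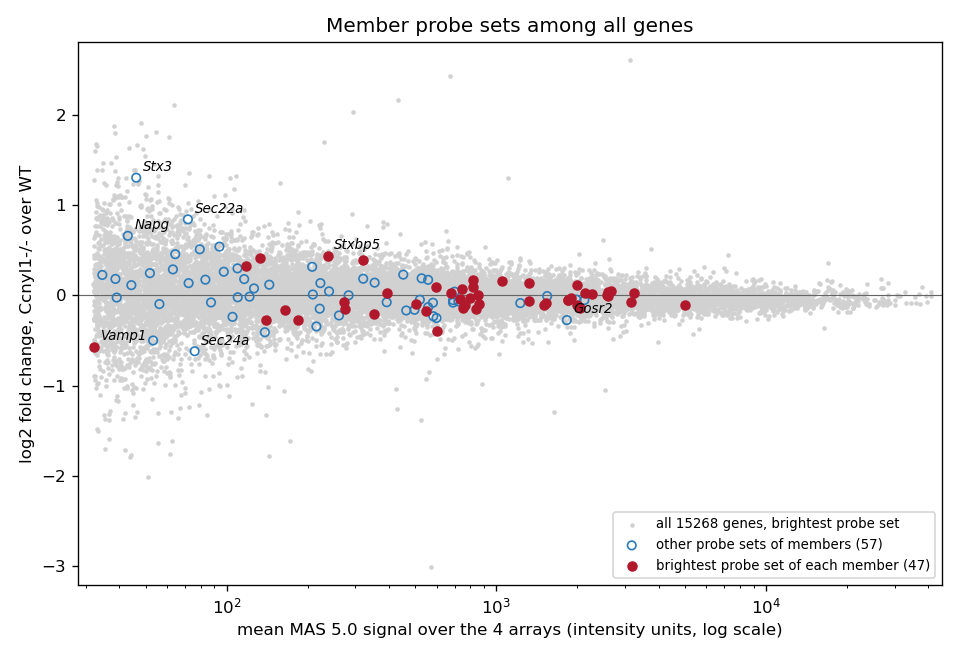
The x axis is the mean MAS 5.0 signal over the 4 arrays on a log scale and the y axis the log2 fold change of *Ccnyl1*-/- over WT, with the brightest probe set of each of the 47 genes in red, the 57 other probe sets of these genes as open circles and the brightest probe set of all 15268 genes in grey. Fold changes spread out toward dim signals, where the *Stx3* (1.30), *Sec22a* (0.84) and *Vamp1* (-0.57) points lie.

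Genes next to these in the pathway were read in further lists. Of 15 further SNARE and SM protein genes, 12 were tested, 5 above and 7 below 0, from *Vps33b*, an SM protein of late endosomes, at -0.64 to *Stxbp5l*, a relative of tomosyn, at 0.34. Of 18 genes of COPII assembly and ER exit, 15 were tested, 7 above and 8 below 0, from *Sec16b*, a scaffold of exit sites, at -0.27 to *Tfg*, which organizes those sites, at 0.23. The 13 COPI genes, which serve the return route from the Golgi, lay 7 above and 6 below 0, from *Copz1* at -0.27 to *Copz2* at 0.28, both subunits of the coat. Among 18 tethers and exocyst genes 11 were above and 7 below 0, from *Gorasp2* at -0.13 to *Gorasp1* at 0.29, both of which stack the Golgi. Of 15 regulators of calcium-triggered fusion, 12 were tested, 8 above and 4 below 0, from *Doc2b*, a calcium sensor, at -0.30 to *Syt8*, a synaptotagmin, at 0.64. None of the genes of these lists passed the adjusted test in limma. An unadjusted p under 0.05 was reached by 1 of the 12 further SNARE and SM genes tested, *Vps45* (lower). It was also reached by 1 of the 15 genes of COPII assembly and ER exit, *Tfg* (higher), and by none in the other lists. Over all genes the share was 6.29%.

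**Figure D4:**
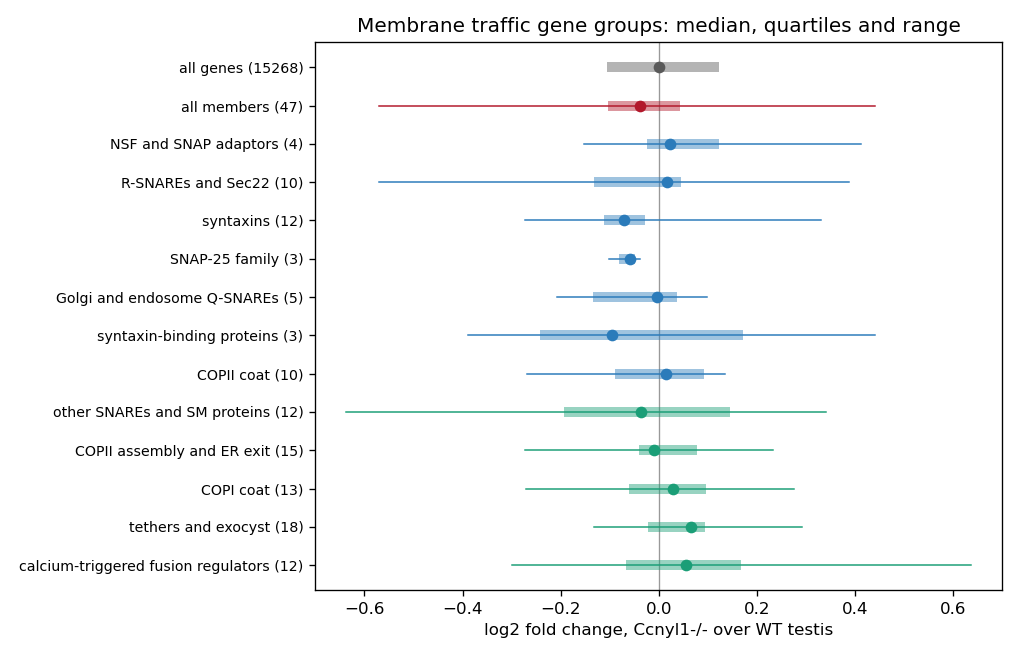
Points are medians over genes of the log2 fold change of *Ccnyl1*-/- over WT (x axis), thick bars run between the quartiles and thin lines between the lowest and highest gene, for the roles among the 47 genes tested (blue), the other pathway lists (green) and all genes (grey, without the thin line), with the number of genes tested in parentheses. Every median lies between -0.10 and 0.07.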

How the data were processed

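The authors deposited MAS 5.0 signals, intensities on a linear scale, 1 array per mouse, each array multiplied by 1 factor (global scaling). The methods state a trimmed mean of 100, while the deposited arrays have 500.0. Probe effects stay in these values, so signals order probe sets by brightness and not by the abundance of their transcripts. The deposited scale was kept, with genotype tested on log2(signal + 16) in R 4.3.3 with limma 3.58.1 (lmFit, eBayes with a trend) over the 32438 probe sets with a mean signal of at least 32. P-values were adjusted by Benjamini-Hochberg over all of them, with a threshold of 0.05, and intervals are 95%. The 4 arrays limit the precision. The probe sets were paired with genes by the platform annotation, and all 48 symbols were found in a RefSeq table of GRCm38.p6. A probe set of *Vamp1* shared with another gene was left out.

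The members, lists and tests were chosen with earlier results of these data known. Values are given for *Nsf*, *Napa*, *Sec23a*, *Sec23b*, *Sec13*, *Sec31a*, genes at an unadjusted p under 0.05, the largest rise and fall of each role, and genes whose probe sets differ in sign by over 0.5. Any other gene was picked with its values known. Scripts were tested on simulated data, and 13 other settings were run, besides leaving out each mouse.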

Additional observations from a re-analysis of the deposited data

How the results depend on the processing

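No SNARE, NSF or COPII gene passed the adjusted test under any of 13 other settings or without each mouse. Over all probe sets 4 passed, against 7 with arrays scaled to one median, 0 with eBayes without the trend, 0 with the methods' t-test, 2 with the mean over all probe sets of a gene, and 6 to 55 without a mouse (55 without WT mouse 2, 46 without WT mouse 1, 7 without *Ccnyl1*-/- mouse 1). The replicate numbers were not shown to pair the mice. Deviations of the mice numbered 1 from their genotype means correlated at r = 0.014 across the 32438 probe sets. With the replicate block 14 probe sets passed, none of them of these genes' brightest. Genes of the set at an unadjusted p under 0.05 numbered 1 of 47, where 6.05% of all probe sets reached that level. With one median they numbered 3 of 47 (*Sar1a*, *Stx12* and *Stxbp2*), against 6.99% of all probe sets. They numbered 2 without the trend, 2 with the mean of probe sets, 2 with the t-test and 2 with only probe sets without suffix. The share over all probe sets was not set beside these last counts, so they are not read as many or few. The median fold change of the set was -0.0389, against -0.116 with one median, 0.00843 with the mean of probe sets, -0.0338 with a minimum signal of 100 or none and -0.0456 with only probe sets without suffix, and it ran from -0.0447 to -0.0207 without a mouse. The adjusted p of *Ccnyl1* was 0.596 without the trend and 0.723 with the t-test, at a log2 fold change of -1.29. Of 382 values of named genes under other settings, 363 kept their direction. Some settings left every fold change as it was, so direction could not turn there. These were the t-test, the replicate block, and eBayes without the trend or in its robust form. Scaling to one median lowered the median of all genes from -0.000364 to -0.0755, and with it the sign turned in *Napa* (-0.0596), *Sec13* (-0.0523), *Sec31a* (-0.0036) and *Napg* (-0.0500), and it turned with the mean of probe sets in *Vti1a* (0.126), *Snap29* (0.0598), *Vamp7* (0.176) and *Sec24a* (-0.260). Without each mouse in turn, values ran from -0.0261 to 0.0626 in *Napa*, -0.0436 to 0.311 in *Sec24b*, -0.0503 to 0.244 in *Bet1*, -0.200 to 0.123 in *Snap29*, -0.0704 to 0.123 in *Napg* and -0.0985 to 0.292 in *Sec24a*. Apart from the common shift under one median, the cause was not tested.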
